A study of Mus musculus with 6 samples.

Results

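The 9 genes described here encode regulators of gene expression in the heart: the zinc finger factors Gata4 and Gata6, the homeobox factors Nkx2-5 and Irx4, the T-box factors Tbx5 and Tbx20, the basic helix-loop-helix factor Hand2, the coactivator Myocd and the muscle histone methyltransferase Smyd1. They were picked by name, with earlier results of these arrays known, in which regulators of the heart had been seen well above background in RNA labelled as limb muscle and several had been seen higher after treatment. Their levels and the counts of members are therefore a description of these arrays and not independent evidence. Members were found as all non-control probes whose identifier was a RefSeq transcript of one of the 9 genes. This gave 12 of 55681 probes, 3 for Tbx20, 2 for Smyd1 and 1 for each of the others, and all 9 genes were among the 20870 genes and transcripts tested.

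Total RNA of muscle labelled as gastrocnemius, a calf muscle, was measured on 6 single-colour Agilent arrays in 3 groups of 2. The group B10_tap was C57BL/10 mice given tap water, MDX_tap was MDX mice given tap water, and MDX_JJ101 was MDX mice given JJ101, named by the labels as a bioceramic water, with 10 months on the water in every group. MDX mice carry a mutation in the dystrophin gene in all tissues, and C57BL/10 is the strain they arose from, so genotype is the contrast between both tap-water groups and water is the contrast between both MDX groups. The labels number the replicates but do not say that they were separate mice, or whether animals were pooled, so the p-values measure only the spread between these arrays.

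GATA4, NKX2-5, TBX5 and HAND2 act as a network in the heart: they bind DNA near each other, activate many of the same contractile and hormone genes, and activate one another's genes. Myocardin does not bind DNA itself but works through serum response factor, and Smyd1 is a methyltransferase of striated muscle that is a target of this network and of the MEF2 factors. In adult animals these factors mark heart muscle and, in part, its connective tissue and vessels. Adult limb muscle relies instead on Myod1, Myog and their relatives, although Smyd1 is active in both kinds of striated muscle.

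The 9 genes were measured on every array. The probe used for each gene was well above background on 6 of 6 arrays, no spot of it was an outlier, and all 9 genes passed the filter on dim probes. The tissue label was checked against marker lists. All 8 contractile genes of the heart (Myh6, Actc1, Tnnt2, Tnni3, Mybpc3, Myl2, Myl3 and Tnnc1) passed the scanner's background test on all 6 arrays. Of 20 regulators of limb muscle, 13 were well above background on no array, among them Myod1, Myf5 and Myog, and 3 on all 6. Of 19 genes of skeletal muscle fibres, 9 were so on all 6, 8 on some and 2 on none. The heart contractile genes and the limb muscle regulators therefore go against the label gastrocnemius for all 6 arrays. Fibre genes were present as well, 9 of the 19 on all 6 arrays, MDX_JJ101 included, and others, such as Myh4, on the tap-water arrays only. The tissue is called the labelled muscle below. The label of the gene set as heart regulators fits these lists.

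A single slide carried the 6 arrays, with MDX_JJ101 in 1 row and the tap-water groups in the other, so row and JJ101 cannot be told apart. Within the tap-water row each genotype had its own columns, so that genotype and column cannot be told apart. Between 42.5% and 43.8% of spots were well above background in MDX_JJ101, against 48.1% to 51.6% on the other arrays. Replicates correlated at 0.989 to 0.995 over the 20862 genes tested that had a value on every array. Levels are on the log2 scale and relative to the 75th percentile of the array's non-control spots, so that a level of 1 is a signal 1 log2 unit above that percentile. A difference passed the test where limma's p, adjusted by Benjamini-Hochberg over all 20870 genes, was under 0.05. A gene's level was compared between groups and not with the level of another gene, since probes differ in brightness. In such bulk RNA, fewer cells of a type and less RNA per cell cannot be told apart.

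Promoter sequences are shown because the members include both binding proteins and their possible targets. RefSeq promoters of assembly GRCm38.p6 were used for 5 of the 9 members (Nkx2-5, Tbx20, Hand2, Irx4 and Smyd1). No promoter was searched for Gata4, Gata6, Tbx5 and Myocd, which does not mean that RefSeq holds none for them. The 250 bases before the start were searched on both strands for the letters bound by the members and their partners, with matches in capitals in the sequences of 4 promoters, read 5′ to 3′ toward the start. They are Nkx2-5 (chr17:26841566-26841815, minus strand), Hand2 (chr8:57320733-57320982, plus strand), Smyd1 (chr6:71262282-71262531, minus strand) and Irx4 (chr13:73260247-73260496, plus strand).
Nkx2-5: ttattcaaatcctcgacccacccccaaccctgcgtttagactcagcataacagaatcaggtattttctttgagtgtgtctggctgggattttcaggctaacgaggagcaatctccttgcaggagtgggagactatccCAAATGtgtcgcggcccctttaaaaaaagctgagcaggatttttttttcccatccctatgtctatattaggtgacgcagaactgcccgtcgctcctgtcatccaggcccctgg
Hand2: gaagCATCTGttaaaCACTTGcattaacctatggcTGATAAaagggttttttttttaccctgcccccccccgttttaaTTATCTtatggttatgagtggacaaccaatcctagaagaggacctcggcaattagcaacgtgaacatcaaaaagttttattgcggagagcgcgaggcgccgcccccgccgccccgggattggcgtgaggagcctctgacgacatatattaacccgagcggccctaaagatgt
Smyd1: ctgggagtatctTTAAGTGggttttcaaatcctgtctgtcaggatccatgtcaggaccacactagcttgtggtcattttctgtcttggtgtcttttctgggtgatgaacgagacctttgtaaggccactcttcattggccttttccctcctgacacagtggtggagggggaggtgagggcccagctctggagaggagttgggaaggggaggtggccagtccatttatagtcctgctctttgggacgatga
Irx4: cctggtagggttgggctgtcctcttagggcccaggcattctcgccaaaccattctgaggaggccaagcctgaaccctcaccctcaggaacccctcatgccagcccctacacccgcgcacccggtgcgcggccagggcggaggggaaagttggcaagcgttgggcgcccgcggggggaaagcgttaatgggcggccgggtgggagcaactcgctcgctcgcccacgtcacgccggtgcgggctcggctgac

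The motif of GATA factors was taken as AGATAA and its variants that start with T or end with G, which 26.5% of 32851 promoters of the same length held. Hand2 held 2 of them, 1 of which is read from the opposite strand as TTATCT. The letters TNAAGTG, bound by NKX2-5, were held by 10.1% of promoters and by Smyd1 among these 5, where they read TTAAGTG. The E-box CANNTG, bound by basic helix-loop-helix factors such as HAND2, was held by 66.2% of promoters, with 2 matches in Hand2 and 1 in Nkx2-5. The T-box letters AGGTGT (11.8% of promoters), the CArG box of serum response factor (1.47%) and the MEF2 box (2.92%) matched in none of the 5. Irx4 and Tbx20 held no match to any motif in this window. T-box and E-box letters can overlap, the motifs were chosen with the array results known, and a match describes letters only.

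The first comparison was between MDX_JJ101 and MDX_tap, which differ in the water given. Gata4, Nkx2-5, Tbx5, Irx4 and Myocd were higher in MDX_JJ101, by 0.68 to 1.13 on the log2 scale (1.61-fold to 2.19-fold), and all 5 passed the test. Gata6 and Smyd1 gave 0.43 and 0.36 and missed it, as did Hand2 and Tbx20, whose arrays overlapped between the groups. Of the 9 members, 5 were called, all higher, where 36.1% of all genes tested were called, 19.9% higher and 16.1% lower. The arrays of 7 members did not overlap and were higher in MDX_JJ101, which held for 37.3% of all genes, with 35.4% lower without overlap. The median difference of the members was 0.68, and the median of all genes was 0.00.

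Gata4, which activates contractile genes and the natriuretic peptide genes of heart muscle, had levels of 3.60 and 3.64 in MDX_JJ101, 2.89 and 2.98 in MDX_tap, and 3.06 and 3.01 in B10_tap. Both MDX_JJ101 arrays stood above the other 4, and both MDX_tap arrays were the lowest. The mean was 3.62 ± 0.026 (SD, n = 2) in MDX_JJ101 and 2.93 ± 0.065 in MDX_tap, a difference of 0.69 (SE 0.0965, limma adjusted p = 0.0130). Its relative Gata6, needed for the heart's outflow tract and for endoderm, had levels of 3.05 and 3.18 in MDX_JJ101, 2.52 and 2.84 in MDX_tap, and 2.65 and 2.62 in B10_tap. The groups on tap water overlapped each other and lay below MDX_JJ101. The MDX_tap arrays of Gata6 were 0.32 apart, and the difference of 0.43 (SE 0.139, limma adjusted p = 0.0616) had a 95% interval of 0.08 to 0.79 before adjustment.

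Nkx2-5, the homeobox factor of heart muscle precursors and of adult heart muscle, had levels of 4.47 and 4.61 in MDX_JJ101, 3.55 and 3.60 in MDX_tap, and 3.83 and 3.77 in B10_tap. The 3 groups did not overlap, in the order MDX_JJ101, B10_tap, MDX_tap. Its difference between the MDX groups was 0.96 (SE 0.102, limma adjusted p = 0.0128), or 1.95-fold, and both its means had an SD of at most 0.096. Irx4 is an Iroquois homeobox factor that, within the heart, is restricted to the ventricles. Its levels were 2.86 and 3.0 in MDX_JJ101, 2.30 and 2.20 in MDX_tap, and 2.76 and 2.67 in B10_tap. MDX_tap stood low for this gene, and the other groups were near each other without overlap. The difference between the MDX groups was 0.68 (SE 0.108, limma adjusted p = 0.0143).

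Tbx5, the T-box factor mutated in Holt-Oram syndrome of heart and hand, had levels of 2.17 and 2.23 in MDX_JJ101, 1.18 and 0.96 in MDX_tap, and 1.60 and 1.42 in B10_tap. The order of the groups was that of Nkx2-5, again without overlap, and the difference between the MDX groups of 1.13 (SE 0.128, limma adjusted p = 0.0128) was the widest of the 9. Tbx20, a T-box factor needed in heart muscle and valves, differed from it. Its levels were 1.98 and 1.84 in MDX_JJ101, 1.80 and 2.03 in MDX_tap, and 1.52 and 1.51 in B10_tap. Both MDX groups overlapped and both stood above B10_tap. Between the MDX groups the difference was −0.01 (SE 0.124, limma adjusted p = 0.969), with a 95% interval of −0.32 to 0.31.

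Hand2, a basic helix-loop-helix factor of the right ventricle and the sympathetic nerves, had levels of 1.62 and 1.86 in MDX_JJ101, 1.34 and 1.64 in MDX_tap, and 1.01 and 1.08 in B10_tap. As with Tbx20, the MDX groups overlapped, and all 4 MDX arrays were above B10_tap. The difference between the MDX groups was 0.25 (SE 0.149, limma adjusted p = 0.237), with a 95% interval of −0.13 to 0.62. Myocd, the coactivator of serum response factor in heart and smooth muscle, had levels of 2.98 and 3.45 in MDX_JJ101, 2.02 and 2.26 in MDX_tap, and 2.13 and 2.20 in B10_tap. Its MDX_JJ101 arrays had the widest spread of any member and group (SD 0.33), and still lay above the 4 others, which overlapped. The difference between the MDX groups was 1.08 (SE 0.185, limma adjusted p = 0.0158).

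Smyd1, the methyltransferase of striated muscle, had levels of 3.96 and 4.13 in MDX_JJ101, 3.55 and 3.83 in MDX_tap, and 3.95 and 3.97 in B10_tap. The MDX_tap arrays were low and the other 4 lay close together. The difference between the MDX groups was 0.36 (SE 0.137, limma adjusted p = 0.0958), with a 95% interval of 0.01 to 0.70. A second Smyd1 probe gave 0.22 for the same comparison, and for MDX_JJ101 against B10_tap it gave −0.15 where the brighter probe gave 0.08. A second Tbx20 probe, well above background on all 6 arrays, gave 0.16 between the MDX groups where the main one gave −0.01. The third Tbx20 probe was well above background on 3 arrays only.

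**Figure D1:**
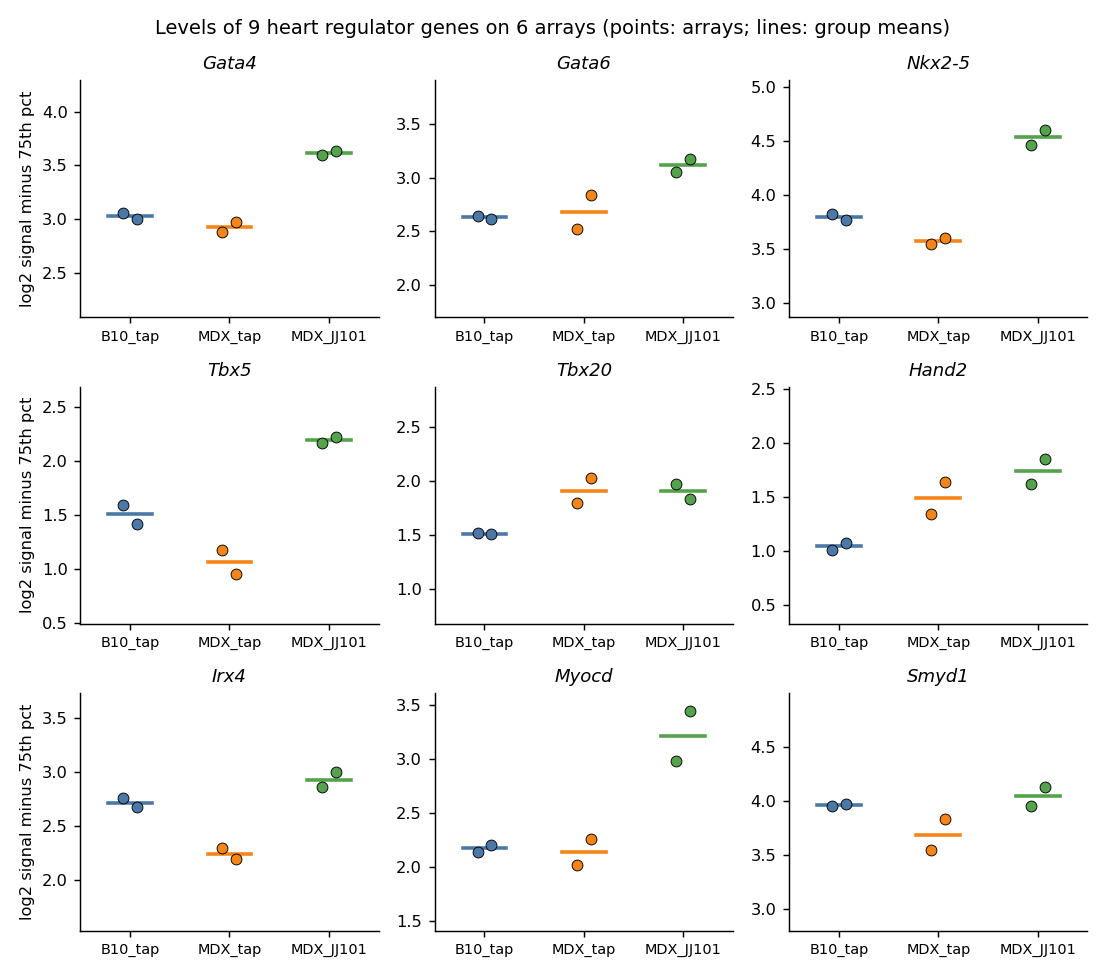
Level of each of the 9 genes (log2 scale, relative to the 75th percentile of the array) on the 6 arrays, 1 point per array and a bar for the mean of each group of 2. For Gata4, Nkx2-5, Tbx5 and Myocd both MDX_JJ101 points lie above all others, whereas for Tbx20 and Hand2 the MDX groups overlap above B10_tap.

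How far these calls rest on single arrays and on the scaling was measured. Without the first MDX_tap array 2 of the members were called (Nkx2-5 and Tbx5), and without the second none was (smallest limma adjusted p = 0.0519). With the arrays scaled on the spiked-in control transcripts none was called (smallest limma adjusted p = 0.228), and the members' median difference was 0.25, with that of all genes at −0.43. The gap between these medians cannot change under a scaling that shifts a whole array. It was 0.68 with the 75th percentile, 0.48 with normexp and quantile normalization, 0.50 in the authors' table and 0.43 with no filter on dim probes. The differences of Gata4, Nkx2-5, Tbx5, Irx4 and Myocd were above 0 under all 18 alternatives, while Hand2 was at −0.18 and Smyd1 at −0.08 with spike-in scaling. With slide column as a block no member and no other gene was called (smallest limma adjusted p = 0.0578).

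**Figure D2:**
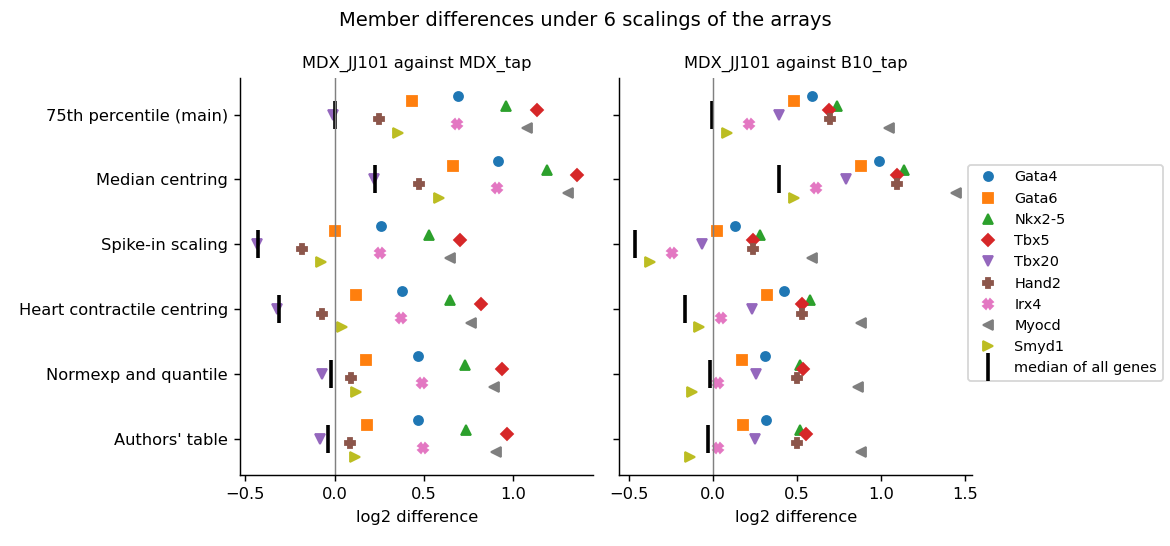
Difference of each of the 9 genes on the log2 scale for MDX_JJ101 against MDX_tap (left) and against B10_tap (right), under 6 ways of scaling the arrays, with a bar for the median of all genes. The first 4 scalings shift each array as a whole, so that members and the median of all genes move together by construction. In the last 2 the gap between the members' median and that of all genes is 0.48 and 0.50 on the left, against 0.68 in the others.

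The same comparison was made against the wild type, which differs in both genotype and water. In MDX_JJ101 against B10_tap, Gata4, Nkx2-5, Tbx5, Hand2 and Myocd were higher and passed the test, so Hand2 joined the called genes and Irx4 left them. Of the 9 members 5 were called, all higher, where 33.6% of all genes were called, 16.2% higher and 17.4% lower. The arrays of 8 members did not overlap and were higher in MDX_JJ101, which held for 37.9% of all genes, with 37.3% lower without overlap. The median difference of the members was 0.59, and that of all genes −0.01. This comparison shares the MDX_JJ101 arrays with the first, so the 2 counts are not independent.

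By gene, Myocd differed by 1.05 (SE 0.185, limma adjusted p = 0.0177), or 2.06-fold. Nkx2-5 differed by 0.74 (limma adjusted p = 0.0122) and Gata4 by 0.59 (limma adjusted p = 0.0156). Tbx5 and Hand2 both differed by 0.69, with limma adjusted p = 0.0189 and 0.0254. Hand2 is the one called gene here for which MDX_tap already stood near MDX_JJ101. Gata6 lay just outside the threshold at 0.48 (limma adjusted p = 0.050006), and Tbx20 was at 0.39 (limma adjusted p = 0.0615). Irx4 was at 0.21 (95% interval −0.06 to 0.49) and Smyd1, whose arrays overlapped, at 0.08 (95% interval −0.27 to 0.43). No member was called without either of the B10_tap arrays, 3 were without the second MDX_JJ101 array (Gata4, Nkx2-5 and Myocd), and none was with spike-in scaling, under which the median was 0.13. With the arrays centred on their median, 8 were called, all but Smyd1, and the median was 0.99.

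The last comparison was between MDX_tap and B10_tap, which differ in genotype and in slide column. It shares the MDX_tap arrays with the first comparison and the B10_tap arrays with the second, so these comparisons are not independent. No member was called by limma, where 0.024% of all genes were (5 of 20870), and at an unadjusted p under 0.05 there were 4 members, against 21.0% of all genes. Of the 9, 2 were higher in MDX_tap without overlap (24.4% of all genes were) and 5 were lower without overlap (37% of all genes were), while Gata6 and Myocd overlapped. The median difference was −0.10, against −0.06 for all genes.

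The largest differences between MDX_tap and B10_tap were those of Irx4, at −0.47 (SE 0.108, limma adjusted p = 0.129), and Hand2, at 0.45 (SE 0.149, limma adjusted p = 0.192). Tbx5 was at −0.44 (95% interval −0.76 to −0.12) and Tbx20 at 0.40 (limma adjusted p = 0.176). Smyd1 at −0.27 and Nkx2-5 at −0.22 were smaller, with limma adjusted p = 0.317 and 0.285. Gata4, at −0.10, had a 95% interval of −0.35 to 0.14. The direction of this comparison depended on the scaling: with the arrays centred on their median, Gata4 was at 0.07 and the members' median at 0.07, and with centring on the heart contractile genes the median was 0.05. For Irx4, Tbx5, Hand2 and Tbx20 the direction was the same under all 17 alternatives that could be run.

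**Figure D3:**
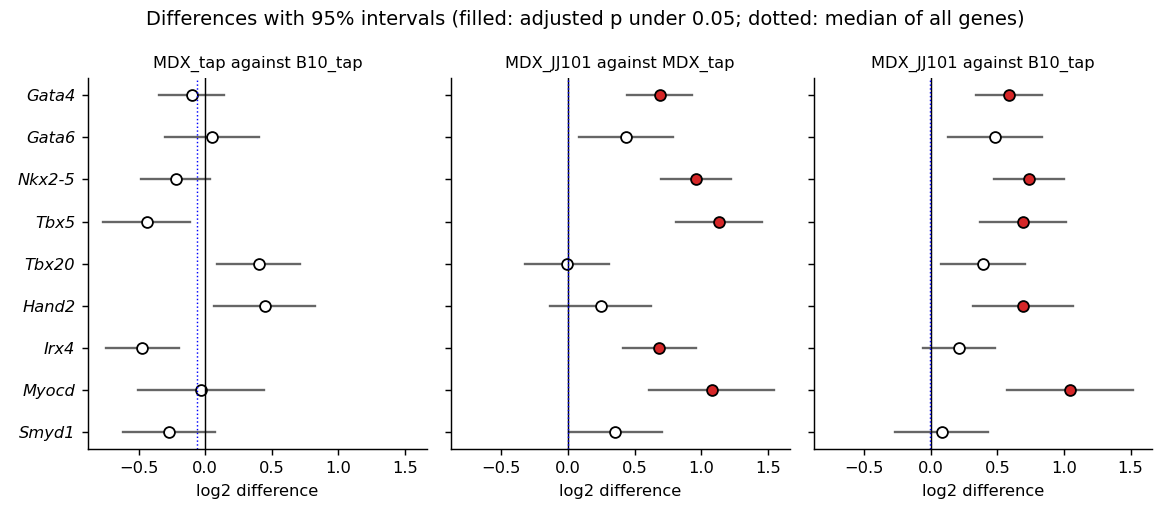
Difference between groups for each gene on the log2 scale in the 3 comparisons, with lines for 95% intervals before adjustment for multiple testing, filled symbols for the genes past the threshold and a dotted line for the median of all genes. Tbx5 and Irx4 are below 0 for MDX_tap against B10_tap and above 0 for MDX_JJ101 against MDX_tap, and Tbx20 and Hand2 are above 0 in the first. Both of these comparisons use the same MDX_tap arrays with opposite sign, so low values on those arrays alone would give opposite directions.

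Across the 3 groups, the order of levels differed between members. For Gata4, Nkx2-5, Tbx5, Irx4 and Smyd1 the order was MDX_JJ101, B10_tap, MDX_tap. Between neighbours in that order, MDX_JJ101 and B10_tap differed past the test for Gata4, Nkx2-5 and Tbx5 but not for Irx4 and Smyd1, and no gene passed it between B10_tap and MDX_tap. For Gata6 and Hand2 the order was MDX_JJ101, MDX_tap, B10_tap, with neither pair of neighbours past the test. For Tbx20 the MDX groups shared a mean of 1.91 above B10_tap at 1.51, and for Myocd the tap-water groups lay together at 2.17 and 2.14 below MDX_JJ101 at 3.22. Replicate 2 was above replicate 1 for 8 of 9 members in MDX_JJ101, 7 in MDX_tap and 3 in B10_tap.

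By the distance between centred log2 levels over the 6 arrays, the members most alike were Gata4 and Nkx2-5 (0.283), Gata4 and Gata6 (0.308), and Nkx2-5 and Tbx5 (0.320). The 5 named genes closest to the members' mean profile among 13938 were Eif2b4 (0.0469), Rnft2 (0.0671), Gss (0.0672), Gtf3c1 (0.0682) and Mapkapk3 (0.0701). The nearest gene to single members was Dhrs7c for Gata4 (0.0613), Prkag1 for Nkx2-5 (0.0606), Slc25a39 for Tbx5 (0.161), Mri1 for Irx4 (0.0927) and Klhl21 for Myocd (0.114). It was Nceh1 for Gata6 (0.0739), Fkbp14 for Tbx20 (0.0816), Slc38a2 for Hand2 (0.0495) and Itgb1bp2 for Smyd1 (0.0559). These distances rest on 6 arrays and share their scaling, and describe likeness of pattern only.

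Other genes of the same network were described with a list of 24 further heart regulators, of which 21 were tested and 20 were well above background on all 6 arrays and 3 on none. For MDX_JJ101 against MDX_tap, where 19.9% of all genes tested were called higher and 16.1% lower, 6 of these regulators rose and 4 fell. Another 11 did not pass the test, and the median of the list was 0.20. Among those that rose, Klf15, a Krüppel-like factor of heart and muscle metabolism, gave 1.03 (limma adjusted p = 0.0137). Mef2d, a MADS-box partner of several members, gave 0.99 (limma adjusted p = 0.0204). Srf, the DNA-binding partner of Myocd, gave 0.87 (limma adjusted p = 0.0149). Among those that fell, Hey1 and Heyl, repressors downstream of Notch, gave −0.94 (limma adjusted p = 0.0129) and −0.63 (limma adjusted p = 0.0304), and Tbx3, a T-box repressor of the conduction system, gave −0.66 (limma adjusted p = 0.0215). These 6 genes kept their direction under all 18 alternatives. The counts did not: with spike-in scaling 0 rose and 3 fell, and without the first and the second MDX_tap array 1 rose and 0 fell, and 0 rose and 0 fell.

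Against B10_tap, 6 of these regulators rose and 3 fell in MDX_JJ101, with a median of 0.19. Of all genes tested, 16.2% were called higher and 17.4% lower. Srf gave 0.98, Irx3, an Iroquois factor of the conduction system, gave 0.97, and Mef2d gave 0.88, while Heyl gave −0.67, Hey1 −0.55 and Tbx2 −0.53. Without either B10_tap array, 0 rose and 0 fell. Between MDX_tap and B10_tap none of the 21 passed limma's test, where 0.024% of all genes did.

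Known targets of the members were described in the same way. Of 21 heart target genes 19 were tested, and in MDX_JJ101 against MDX_tap 2 rose, Tnni3 (0.56, limma adjusted p = 0.0175) and Mybpc3 (0.56, limma adjusted p = 0.0159), both parts of the heart's sarcomere. The gap junction gene Gja5 fell by 0.44 (limma adjusted p = 0.0246), and the median of the list was 0.16. Of all genes tested, 19.9% were called higher and 16.1% lower between the MDX groups. Myh6 gave 0.06, Actc1 gave 0.23 and Nppb gave −0.08, with none past the test. Nppa, the atrial natriuretic peptide and a classical target of Gata4, Nkx2-5 and Tbx5, gave 0.91 between the MDX groups (limma adjusted p = 0.0589) and 2.37 against B10_tap (limma adjusted p = 0.0104). The 2 targets called against B10_tap were Nppa and Mybpc3, both higher, where 16.2% of all genes were called higher and 17.4% lower. With spike-in scaling 0 targets rose and 1 fell between the MDX groups, and with the 2 MDX groups fitted alone none was called.

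Relatives of the members from the same gene families numbered 27, of which 21 were tested. Some of them, among them Gata5, Tbx3, Irx3 and Irx5, were also in the list of further heart regulators, so the counts of both lists are not independent. In MDX_JJ101 against MDX_tap 7 rose and 3 fell, where 19.9% of all genes tested were called higher and 16.1% lower. Differences between the families were not tested. All 4 relatives of Smyd1 were well above background on all arrays and 3 rose: Smyd5 gave 1.34 (limma adjusted p = 0.0125), Smyd2 gave 0.85 (limma adjusted p = 0.0130) and Smyd3 gave 0.63 (limma adjusted p = 0.0418). The Iroquois genes Irx3, Irx5 and Irx1 rose, by 0.85, 0.73 and 0.61. The T-box genes Tbx3 and Tbx6 fell, Tbx6 by 0.61 (limma adjusted p = 0.0273), and the homeobox gene Nkx2-2 fell by 0.69 (limma adjusted p = 0.0160). Of the GATA relatives, Gata5 rose by 0.60 (limma adjusted p = 0.0152). Against B10_tap, 6 rose and 4 fell, where 16.2% of all genes were called higher and 17.4% lower. Smyd5 at 1.19, Irx3 at 0.97 and Smyd2 at 0.76 were the highest, and Tbx6 at −1.28 and Nkx2-2 at −1.15 were among the lowest. Nkx2-6, well above background on no MDX_JJ101 array, was at least 1.55-fold lower there than in B10_tap (limma adjusted p = 0.0290). The relatives called between the MDX groups and named here had the same direction in all 6 scalings of that comparison, but with spike-in scaling 0 rose and 2 fell, and without the second MDX_tap array 0 rose and 0 fell.

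Marker lists of other cell types were measured on the same arrays. Of all genes tested, 19.9% were called higher and 16.1% lower in MDX_JJ101 than in MDX_tap. Against B10_tap these shares were 16.2% and 17.4%. The 8 contractile genes of the heart gave a median of 0.21 between the MDX groups, with 3 higher (Tnnc1 0.80, Mybpc3 0.56 and Tnni3 0.56) and none lower. Mybpc3 and Tnni3 were also among the heart target genes described above. The summed linear level of the fibroblast and epicardial list, in units of the array's 75th percentile, was mostly that of Dcn. This sum was 376 to 402 in B10_tap, 546 to 590 in MDX_tap and 211 to 292 in MDX_JJ101. Of the 7 genes of this list tested, 3 were called lower in MDX_JJ101 than in MDX_tap (Wt1 −1.26, Dcn −1.25 and Pdgfra −0.66). Against B10_tap, Dcn was called lower (−0.72) and Col1a1 higher (1.12). The summed level of the endothelial list was 38.8 to 40.4 in B10_tap, 34.6 to 35.8 in MDX_tap and 22.1 to 25.7 in MDX_JJ101, with Kdr at −0.75 and Cdh5 at −0.46 called lower and Npr3 at −0.53, Pecam1 at −0.16 and Nfatc1 at −0.02 not called. The smooth muscle list lay at 114 in B10_tap, 129 to 157 in MDX_tap and 151 to 173 in MDX_JJ101, with Smtn called higher (0.81) and Myh11 (−0.86) and Tagln (−0.61) lower. Calls between the MDX groups in the fibroblast, endothelial and smooth muscle lists did not all hold under the 18 alternatives. Dcn was called in 15 of them, Pdgfra in 10, Kdr in 12 and Cdh5 in 7. Of the smooth muscle genes, Smtn was called in 14, Myh11 in 16 and Tagln in 9. The atrial list lay at 139 to 181, 371 to 505 and 649 to 1017, mostly Nppa, while its members Bmp10 and Myl7 were well above background on 0 and 1 arrays, Sln on 3 and Myl4 on all 6. The ventricular genes Myl2 and Myl3 gave 0.07 and 0.05 between the MDX groups, neither called, and Hey2 was well above background on 4 arrays. Of the conduction system genes Hcn4, Shox2 and Isl1 were well above background on no array, and Tbx3 on all 6.

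The skeletal fibre list had 2 of 16 tested genes higher in MDX_JJ101 than in MDX_tap (Ckm 1.37 and Mybpc2 0.84) and 8 lower, and its summed level was 199 to 204 in B10_tap, 190 to 224 in MDX_tap and 317 to 333 in MDX_JJ101. Ckm and Acta1, the brightest genes of this list, are active in heart as well. Myh4, the fast myosin of limb muscle, was well above background on all 4 tap-water arrays and on neither MDX_JJ101 array, a level at least 46.3-fold lower than in MDX_tap (limma adjusted p = 0.0128). Myh1 was at least 3.67-fold lower (limma adjusted p = 0.0272), and Tnnc2, the troponin C of fast fibres, gave −4.06 (limma adjusted p = 0.0208). The MDX_tap arrays stood far apart for these genes, at 0.91 and 3.53 for Myh4, −2.92 and 0.05 for Myh1, and 1.31 and 3.88 for Tnnc2. With 1 array left out, an alternative chosen after seeing the data, the bound ranged from 18.6-fold to 115.0-fold for Myh4 and from 1.31-fold to 10.3-fold for Myh1. The difference of Tnnc2 ranged from −5.35 to −2.78. Without the second MDX_tap array Myh4 still passed the test (limma adjusted p = 0.0433), whereas Myh1 and Tnnc2 did not (limma adjusted p = 0.0519 for each). These bounds set the bright group's mean against the lowest signal called well above background on each dim array. Pax7, a limb muscle regulator well above background on no MDX_JJ101 array, was at least 1.1-fold lower (limma adjusted p = 0.0149), and missed the test without the first or the second MDX_tap array (limma adjusted p = 0.0614 and 0.0575). The part of these cell types in the differences of the 9 members was not tested.

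**Figure D4:**
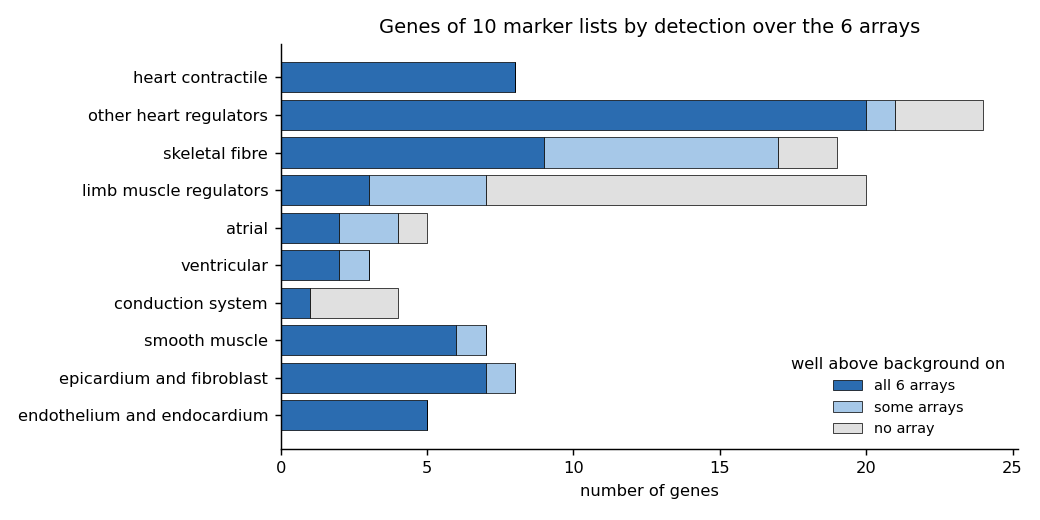
Number of genes of 10 marker lists by how many of the 6 arrays measured them well above background (all, some or none). All 8 heart contractile genes are in the first class, as were the 9 members (not drawn), and 13 of the 20 limb muscle regulators are in the last.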

How the data were processed

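The deposited intensity values came from the authors' scanner files, for which the submitters' processing notes name Agilent Feature Extraction 11.5.1.1, and in which the processed signal is background-subtracted. The deposited files also hold other columns with flags of 0 or 1 for spots well above background, saturated or outliers. The authors' series table holds deposited log2 values with the rank order of the median spot signal (Spearman correlation 1 on each array) and served as an alternative. Its centring is not given in the sources used here. Array coordinates are on mm9 and were not used.

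Each processed signal was taken to log2, and the 75th percentile of the array's 59305 non-control spots was subtracted. Outlier spots were left out, and no spot was saturated. Probes were named through RefSeq accessions (assembly GRCm38.p6), which paired 27656 of 55681 with a symbol. Probes that passed the background flag on both replicates of some group were kept (27260 probes), and the brightest probe stood for its gene (20870 genes and transcripts). One limma model (limma 3.58.1, R 4.3.3) held all 3 groups, with 3 residual and 2.21 prior degrees of freedom. Its two-sided p-values were adjusted over all genes by Benjamini-Hochberg. The steps were tested on simulated data. With 2 arrays against 2, an exact permutation test cannot go below p = 0.333 and was not used. Signal over background and the number of arrays, not a read count, limit the precision.

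The members and lists were chosen with earlier results of these data known. The text names all 9 members, up to 3 genes of a list past the threshold with the largest difference in each direction and comparison, all genes of a list of at most 5, and the nearest genes by profile. Some genes that this rule names are not reported here. Actc1, Myh6, Nppb, Myod1, Myf5, Myog, Myh4 and some relatives were named after their values were seen. The alternatives were median, spike-in, heart contractile and quantile scaling, the authors' table, 2 filters, the mean of probes, 2 groups fitted, blocks, trend and robust fitting, and each array left out. Background correction by normexp (offset 50) used the median spot signal, since the mean signal is not among the columns used here.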

Additional observations from a re-analysis of the deposited data

How the results depend on the processing

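Across the 9 members, 3 comparisons and the alternatives run, 394 single-gene values kept direction and call, 37 lost and 14 gained the call, and 23 changed sign. Leaving out 1 array assumes that the lone array of a group varies like the other groups. With it, members called ranged from 0 to 5 for MDX_JJ101 against MDX_tap and from 0 to 6 for MDX_JJ101 against B10_tap, and their median difference from 0.62 to 0.71 and from 0.56 to 0.61; for MDX_tap against B10_tap the median ranged from −0.15 to −0.057 with 0 called. Members called between the MDX groups were 0 with spike-in scaling and 0 with slide column as a block; against B10_tap they were 8 with median centring and 0 with spike-in scaling. The slide column block could not be fitted for the other comparisons. The median difference between the MDX groups was 0.91 with median centring, 0.25 with spike-in scaling, 0.46 with normexp and quantile normalization, 0.47 in the authors' table and 0.37 with heart contractile centring; against B10_tap these were 0.99, 0.13, 0.31, 0.31 and 0.42, and for MDX_tap against B10_tap 0.072, −0.13, −0.15, −0.15 and 0.049. The same scalings moved the median of all genes between the MDX groups by 0.23 with median centring, −0.43 with spike-in scaling and −0.31 with heart contractile centring. With replicate number as a block, 0, 5 and 5 members were called for MDX_tap against B10_tap and MDX_JJ101 against MDX_tap and B10_tap. The deviations of same-numbered arrays from their own group means correlated over genes at −0.0314, 0.163 and −0.0638 in the same order. The labels do not say that a number marks a pair. In the MDX groups same-numbered arrays also shared a slide column (columns 3 and 4), so for that comparison number and column mark the same arrays; the block on number over all 6 arrays called 5 members and the block on column, which leaves fewer residual degrees of freedom, called 0. Trend and robust fitting called 7 members in both JJ101 comparisons.

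Single values that changed sign were, for MDX_tap against B10_tap, Gata4 at 0.072 with median and 0.049 with heart contractile centring, Myocd at 0.14 and 0.12 with the same, 0.0031 without the second B10_tap array and 0.087 without the first MDX_tap array, and Gata6 at −0.0034 in the authors' table and −0.11 without the second MDX_tap array. With 1 array left out, Myocd ranged from −0.15 to 0.087 and Gata6 from −0.11 to 0.21. Between the MDX groups Tbx20 was at 0.22 with median centring, 0.0026 with the mean of probes, 0.06 without the second MDX_JJ101 array and 0.11 without the second MDX_tap array, and with spike-in scaling Hand2 was at −0.18 and Smyd1 at −0.076. Hand2 was at −0.069 with heart contractile centring, and with 1 array left out Tbx20 ranged from −0.13 to 0.11. Against B10_tap, spike-in scaling gave Tbx20 −0.064, Irx4 −0.24 and Smyd1 −0.38, and Smyd1 was at −0.13 with normexp, −0.14 in the authors' table, −0.082 with heart contractile centring, −0.035 with the mean of probes and −0.0059 without the second MDX_JJ101 array (0.17 at the other end of that range). The cause of these changes was not tested.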
